A study of Mus musculus with 7 samples.

Results

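Rassf1 and 9 core genes of the Hippo pathway were followed in RNA sequencing counts from mouse epicardial explants. The 10 genes were Rassf1, Stk3, Stk4, Sav1, Lats1, Lats2, Nf2, Yap1, Wwtr1 and Tead1. They were found by exact gene name among 22738 gene rows, and all 10 had a row. All 10 also passed the filter on low counts that left 10775 genes for testing. Rassf1 heads the set because its counts differed between the genotypes in these same libraries, so its values are a description and its p-value is not given. The other 9 were taken as its pathway partners, with results of the contrast known.

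The explants came from E12.5 embryos in 2 genotypes, with 3 libraries from Lmnb1-/- embryos, which lack the nuclear lamina protein lamin B1, and 4 from wild type (WT) embryos. Both groups were untreated and on a background that mixes C57BL/6 with 129S4Sv/Jae and 129S6/SvEvTac. Ventricles lay on gelatin for 48 hours so that the epicardium, the outer cell layer of the heart, could migrate out, and the cells that stayed after the hearts were lifted off grew for 72 hours more. The labels do not say whether a library came from 1 embryo or several, nor whether replicates were separate litters, so spreads and p-values refer to the libraries and may be partly technical. The series asks what lamin B1 does in the timing of epicardial migration.

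The Hippo pathway is a kinase chain that restrains growth and responds to cell contact and to tension in the cytoskeleton. MST kinases, held by the scaffold Sav1, phosphorylate LATS kinases, which in turn phosphorylate the coactivators YAP and TAZ and keep them out of the nucleus. When YAP and TAZ enter the nucleus they act mainly through TEAD transcription factors. Rassf1 encodes a Ras association domain protein that binds the MST kinases through the SARAH domain that both carry, and YAP and TAZ are needed for epicardial development in mice.

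Total counts ran from 1786519 to 3066936 in Lmnb1-/- libraries and from 1024898 to 2732236 in WT libraries, WT replicate 2 being the shallowest. Levels are CPM, the depth-scaled count unit, after TMM scaling of the library totals, and 3 counts made 0.965 to 1.68 CPM in Lmnb1-/- libraries and 1.13 to 3.10 CPM in WT libraries. The targeted gene was at 4, 2 and 4 counts in Lmnb1-/- replicates 1 to 3, against 463, 185, 488 and 567 counts in WT replicates 1 to 4. Xist and Y-linked counts showed all 3 Lmnb1-/- libraries and WT replicates 2 and 4 to be male, and WT replicates 1 and 3 to be female. All 14 epicardial and mesothelial markers were detected, with a summed level of 2331 to 2963 CPM in Lmnb1-/- explants and 2864 to 3671 CPM in WT explants. In edgeR 0 of these 14 passed an adjusted p of 0.05, where 0.705% of all tested genes did. Log2 fold changes were below 0 for 11 of the 14, against 52.4% of all tested genes. At an unadjusted edgeR p under 0.05 there were 6, 2 higher and 4 lower, a share of 42.9% against 13.6% of all tested genes. The 10 smooth muscle and pericyte markers summed to 8130 to 8872 CPM in Lmnb1-/- explants and 10899 to 12179 CPM in WT explants, and 5 of 9 tested members fell at an adjusted p under 0.05 in edgeR, where 0.343% of all tested genes fell. The 10 macrophage and leukocyte markers summed to 39.6 to 595 CPM in Lmnb1-/- explants and 73.4 to 323 CPM in WT explants. Of the 14 cardiomyocyte markers, 6 had 10 or fewer counts over all libraries, Myh7 and Actn2 being at 0. Others were expressed, with Myl7 at 297 to 435 CPM in Lmnb1-/- explants and 273 to 610 CPM in WT explants. Tnnt2 was at 115 to 122 and 94.4 to 147 CPM in the same order. The 14 cardiomyocyte markers summed to 557 to 729 CPM in Lmnb1-/- explants and 559 to 921 CPM in WT explants. Of the 8 erythroid markers, 3 had 10 or fewer counts, the erythroid factor Gata1 being at 0. The 10 endothelial markers summed to 83.3 to 98.2 CPM in Lmnb1-/- explants and 63.9 to 93.6 CPM in WT explants, and the 8 erythroid markers to 22.2 to 254 CPM and 19.6 to 204 CPM in the same order. The part of these cell populations in the levels below was not tested, and in bulk RNA fewer cells of a type cannot be told apart from less RNA per cell.

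Rassf1 stood at 311, 269 and 235 CPM in Lmnb1-/- replicates 1 to 3, against 65.7, 70.3, 93.4 and 91.5 CPM in WT replicates 1 to 4. The lowest Lmnb1-/- library lay far above the highest WT library. These levels rest on 966, 479 and 457 counts in Lmnb1-/- libraries and 151, 68, 248 and 217 counts in WT libraries, with 0 counts in the second count column of any table. The means were 271 ± 38.0 CPM in Lmnb1-/- explants (SD, n = 3) and 80.2 ± 14.3 CPM in WT explants (SD, n = 4), a fold of 3.36 and a log2 fold change of 1.75 (SE 0.14). The male WT libraries, at 70.3 and 91.5 CPM, lay within the range of the female WT libraries, at 65.7 and 93.4 CPM, and with male libraries only the log2 fold change was 1.72 (SE 0.16). The macrophage marker sum was 39.6, 263 and 595 CPM in Lmnb1-/- replicates 1 to 3. In WT replicates 1 to 4 it was 128, 73.4, 79.8 and 323 CPM, and its relation to the Rassf1 level was not tested.

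Rassf1 is transcribed from a pair of start sites that give proteins with different N-terminal ends, and in human tumours the upstream one, which makes the tumour suppressor form RASSF1A, is often silenced by methylation of its CpG island. The gene counts do not separate the start sites, so which transcripts made up the higher level could not be read. The 2 windows around them are shown because they flank the starts of the member with the largest difference. Both are the RefSeq windows of the GRCm38.p6 build, 250 bases before to 50 after a start site on the plus strand of chromosome 9, and the start sites lie 3028 bases apart. Capitals mark CpG dinucleotides.
Upstream start site, chr9:107551305-107551604: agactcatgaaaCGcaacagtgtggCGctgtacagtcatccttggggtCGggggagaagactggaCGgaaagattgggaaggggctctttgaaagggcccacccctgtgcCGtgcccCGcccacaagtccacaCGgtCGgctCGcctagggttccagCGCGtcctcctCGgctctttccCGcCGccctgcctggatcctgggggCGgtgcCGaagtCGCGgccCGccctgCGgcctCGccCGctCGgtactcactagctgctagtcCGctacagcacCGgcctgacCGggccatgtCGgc
Downstream start site, chr9:107554333-107554632: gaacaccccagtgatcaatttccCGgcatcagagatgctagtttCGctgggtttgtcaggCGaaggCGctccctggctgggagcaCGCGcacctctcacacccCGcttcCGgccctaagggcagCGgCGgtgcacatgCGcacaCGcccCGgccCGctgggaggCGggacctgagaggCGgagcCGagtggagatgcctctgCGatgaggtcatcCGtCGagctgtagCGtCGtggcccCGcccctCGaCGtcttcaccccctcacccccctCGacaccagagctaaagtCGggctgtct
Each window holds 27 CpG dinucleotides, where the median of all 32851 RefSeq windows is 7 and 15.5% hold at least 27. The GC content is 67.0% upstream and 66.3% downstream. Methylation was not measured here.

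In the GENCODE vM21 annotation, 40.6% of the exon bases of Rassf1 are shared with exons of the noncoding gene Gm9917 on the opposite strand, for which no row was used here. The library kit does not record strand, so reads of the 2 genes cannot be told apart within the shared bases.

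Genes beside Rassf1 on the chromosome lay close to or below their WT level. The 5 tested genes before it and the 5 after it, in RefSeq order, had log2 fold changes of -0.69 to 0.15 with a median of -0.17, and 8 of 10 were below 0, against 52.4% of all tested genes. In the edgeR quasi-likelihood fit, with Benjamini-Hochberg adjusted p-values over all genes, 0 of 10 passed a threshold of 0.05, where 0.705% of all tested genes passed. At an unadjusted p under 0.05 there was 1, Cyb561d2, where 13.6% of all tested genes were, and DESeq2 and limma voom called 0 of the 10. Tusc2, the next tested gene after Rassf1 and like it described as a candidate tumour suppressor of this region in humans, averaged 11 ± 3.44 CPM in Lmnb1-/- explants and 13.2 ± 3.63 CPM in WT explants (SD, n = 3 and 4). Nprl2, the tested gene just before it, which encodes an inhibitor of amino acid signalling to mTORC1, averaged 8.95 ± 1.86 CPM in Lmnb1-/- explants and 9.39 ± 2.85 CPM in WT explants. The hyaluronidase gene Hyal2 averaged 32.1 ± 7.96 CPM in Lmnb1-/- explants and 37.1 ± 12.3 CPM in WT explants. Nat6 had the lowest log2 fold change of the 10, -0.69 (SE 0.38).

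**Figure D1:**
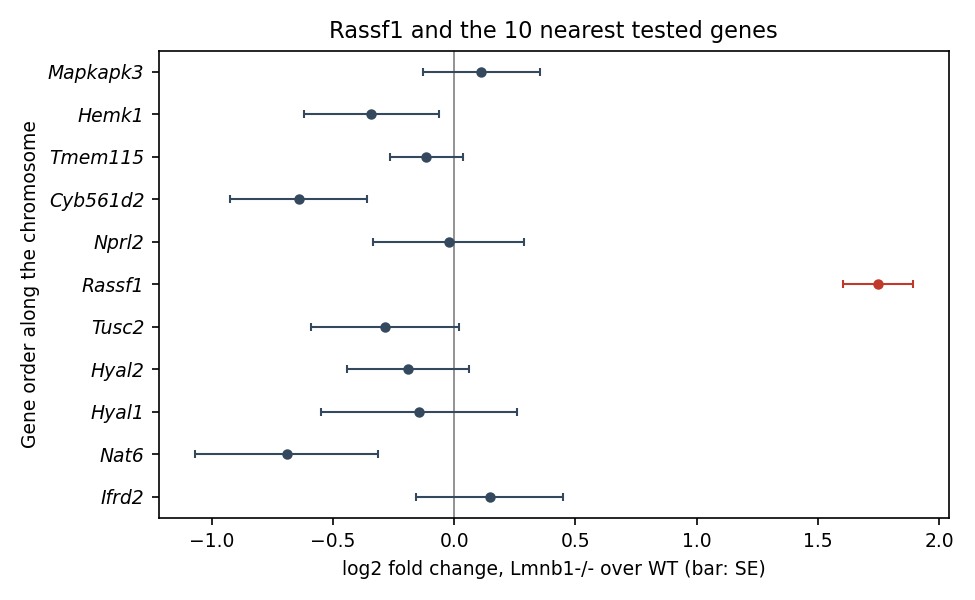
Log2 fold change (Lmnb1-/- over WT, x axis) with its SE for Rassf1 (red) and the 5 tested genes on each side of it, in chromosome order from top to bottom. Rassf1 lies at 1.75, and the 10 neighbours lie between -0.69 and 0.15.

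The kinases that Rassf1 binds were at close levels in both genotypes. Stk3, which encodes MST2, had 58.5, 56.6 and 58.6 CPM in Lmnb1-/- replicates 1 to 3, against 60.5, 59.9, 58.7 and 67.5 CPM in WT replicates 1 to 4. Its ranges lay apart by under 1 CPM, and the log2 fold change was -0.09 (SE 0.13) with a 95% interval of -0.37 to 0.18. Stk4, which encodes MST1, had 186, 172 and 155 CPM in Lmnb1-/- libraries, against 147, 158, 152 and 176 CPM in WT libraries, and the ranges overlapped. Its log2 fold change was 0.11 (SE 0.11), interval -0.13 to 0.35. Sav1, the scaffold that joins MST to LATS, had 51.5, 46.0 and 52.4 CPM in Lmnb1-/- libraries, against 43.5, 42.4, 55.4 and 55.2 CPM in WT libraries, with full overlap and a log2 fold change of 0.011 (SE 0.15), interval -0.32 to 0.34. Of the Sav1 exon bases 52.9% are shared with Atl1 on the opposite strand, whose own row held 7 to 13 counts in Lmnb1-/- libraries and 6 to 18 in WT libraries, and the shared reads cannot be told apart. Adjusted p-values in the same edgeR fit were 0.792 for Stk3, 0.694 for Stk4 and 0.988 for Sav1.

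The same counts can be read within each library as a ratio of Rassf1 to its partner kinases, which describes the difference again and is no further evidence of it. There were 1.27, 1.17 and 1.10 Rassf1 counts per count of Stk3 and Stk4 together in Lmnb1-/- replicates 1 to 3, against 0.317, 0.322, 0.443 and 0.375 in WT replicates 1 to 4. Rassf1 made up 18.8, 16.8 and 15.7% of the counts of all 10 genes in Lmnb1-/- libraries and 4.85, 4.16, 6.44 and 6.28% in WT libraries. Stk3 held 24.0, 24.8 and 27.4% of the Stk3 and Stk4 counts in Lmnb1-/- libraries and 29.1, 27.5, 27.9 and 27.7% in WT libraries, so its highest Lmnb1-/- share lay just under the lowest WT share.

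**Figure D2:**
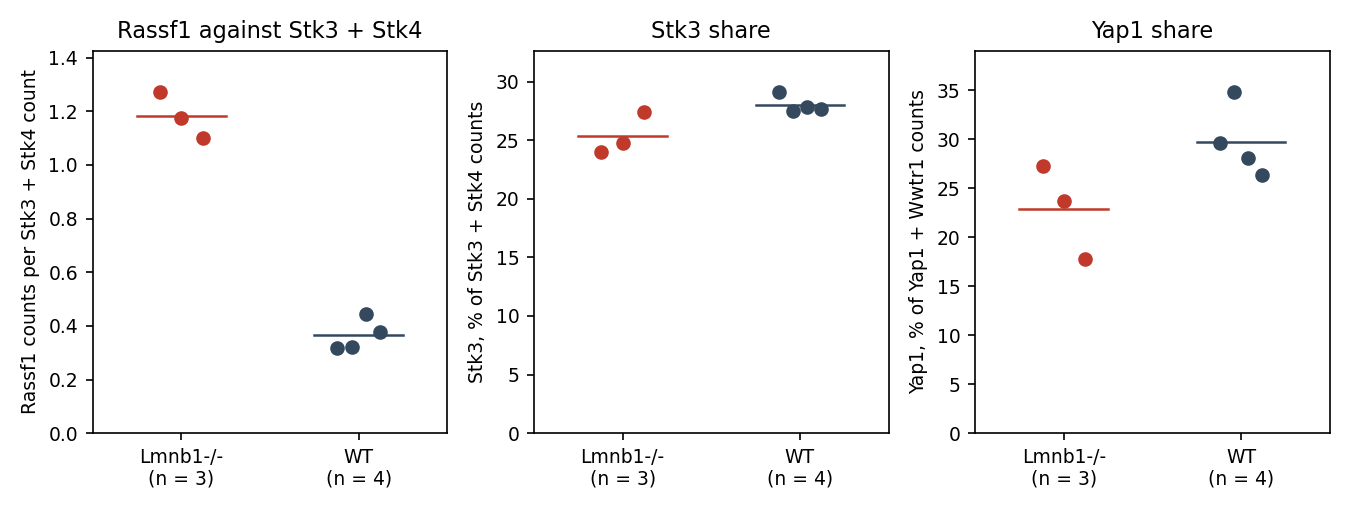
Ratios of raw counts within a library (y axes, linear from 0) for Lmnb1-/- (red, n = 3) and WT (blue, n = 4), with a point for each library and a line at the group mean. The Rassf1 ratio runs from 1.10 to 1.27 in Lmnb1-/- and 0.317 to 0.443 in WT, and the Yap1 shares of the 2 groups overlap.

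The LATS kinases and Nf2 showed no difference past the threshold. Lats1 had 132, 140 and 120 CPM in Lmnb1-/- libraries, against 139, 146, 128 and 152 CPM in WT libraries. Lats2, which is also a known target of YAP, had 226, 249 and 251 CPM in Lmnb1-/- libraries, against 204, 323, 259 and 291 CPM in WT libraries. The 3 Lmnb1-/- values of Lats2 lay inside the WT range, and those of Lats1 overlapped it. Nf2, encoding merlin, the membrane-linked protein that brings LATS to the cell cortex, had 104, 117 and 99.2 CPM in Lmnb1-/- libraries, against 98.3, 80.6, 103 and 97.0 CPM in WT libraries, also overlapping. The log2 fold changes were -0.11 (SE 0.11, interval -0.35 to 0.13) for Lats1, -0.15 (SE 0.14, interval -0.44 to 0.15) for Lats2 and 0.15 (SE 0.12, interval -0.11 to 0.41) for Nf2. Their adjusted p-values in the same edgeR fit were 0.705, 0.674 and 0.619 in that order. In GENCODE vM21, 45.7% of the Lats2 exon bases are also exons of Gm49361 on the same strand, which had no gene row under that name. How the authors counted reads in the shared bases is not known.

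Among the effectors, Wwtr1 was slightly higher and Tead1 lower, without passing the threshold, while Yap1 overlapped. Yap1, which encodes the coactivator YAP, had 87.5, 77.4 and 57.6 CPM in Lmnb1-/- libraries, against 78.7, 112, 86.2 and 74.2 CPM in WT libraries. Its log2 fold change was -0.21 (SE 0.17, interval -0.57 to 0.16). Wwtr1, which encodes the related coactivator TAZ, had 233, 249 and 267 CPM in Lmnb1-/- libraries, against 187, 209, 221 and 207 CPM in WT libraries. All 3 Lmnb1-/- values were above all 4 WT values, with means of 250 ± 16.8 CPM in Lmnb1-/- explants (SD, n = 3) and 206 ± 13.8 CPM in WT explants (SD, n = 4) and a log2 fold change of 0.28 (SE 0.10, interval 0.056 to 0.50). Tead1, which encodes the DNA-binding partner of both coactivators, had 264, 222 and 203 CPM in Lmnb1-/- libraries, against 331, 487, 294 and 245 CPM in WT libraries. The ranges overlapped, since WT replicate 4 fell under Lmnb1-/- replicate 1, and the log2 fold change was -0.55 (SE 0.21, interval -1.03 to -0.062). WT replicate 2, the shallowest library, was highest for Tead1, and without it the log2 fold change was -0.33. In the same edgeR fit the adjusted p was 0.629 for Yap1, 0.258 for Wwtr1 and 0.313 for Tead1. The intervals quoted for single genes are not adjusted for the number of genes.

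The share of Yap1 in the counts of both coactivators overlapped between genotypes. Yap1 made up 27.3, 23.7 and 17.7% of Yap1 and Wwtr1 counts in Lmnb1-/- replicates 1 to 3, against 29.6, 34.8, 28.1 and 26.4% in WT replicates 1 to 4. Lmnb1-/- replicate 1 lay inside the WT range, and the other two lay below it.

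**Figure D3:**
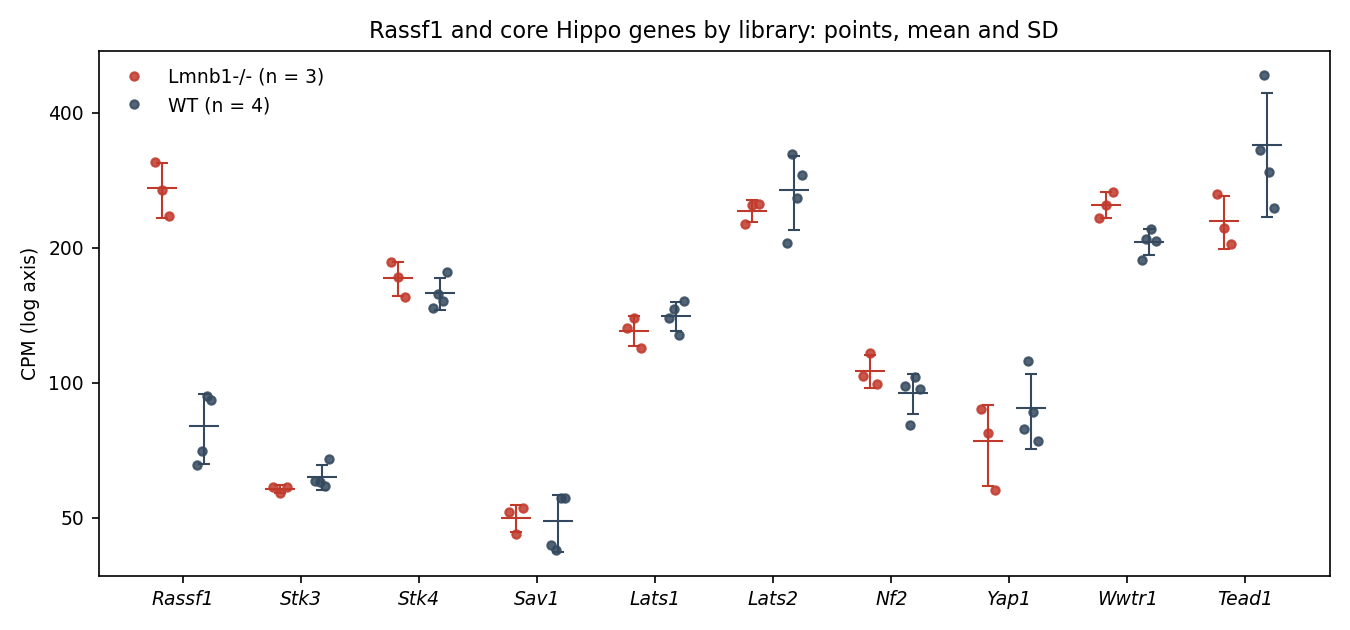
Level in CPM (log y axis) of Rassf1 and the 9 Hippo genes in each library, with Lmnb1-/- (red, n = 3) left of WT (blue, n = 4). Points are libraries, the wide bar is the mean and the whiskers are the SD. Rassf1 stands at 235 to 311 CPM in Lmnb1-/- and 65.7 to 93.4 CPM in WT, and the other genes are at close or overlapping levels.

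In the edgeR fit over all genes 1 of the 10 members, Rassf1, was called, and in the same fit 0.705% of tested genes were called in either direction, 0.362% higher and 0.343% lower. As Rassf1 was chosen from this contrast, nothing is read from that count. Of the other 9, 0 passed, and 2 had an unadjusted p under 0.05, Wwtr1 and Tead1, where 13.6% of all tested genes did. DESeq2 and limma voom called 0 of the 9 as well. Apart from Rassf1, CPM ranges did not overlap for Stk3 and Wwtr1, 2 of 9, against 13.3% of all tested genes. The other 9 had a median log2 fold change of -0.09, against -0.015 over all tested genes, with 4 above 0 and 5 below.

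Per kilobase of GENCODE vM21 exon, Rassf1 was at 127 ± 17.7 CPM per kb in Lmnb1-/- explants (SD, n = 3) and 37.4 ± 6.67 CPM per kb in WT explants (SD, n = 4). In Lmnb1-/- explants that was the highest level of the 10, followed by Wwtr1 at 52.2 ± 3.51, Lats2 at 37.4 ± 2.13 and Stk4 at 32.1 ± 2.86 CPM per kb. In WT explants Rassf1 came after Wwtr1, at 43.1 ± 2.88, and Lats2, at 41.6 ± 7.83 CPM per kb, and before Tead1, at 33.7 ± 10.4, and Stk4, at 29.8 ± 2.40 CPM per kb, and neighbours in this order did not differ beyond their spread. The lower-expressed members lay close together in both genotypes. In Lmnb1-/- explants Tead1, Nf2, Sav1, Stk3, Lats1 and Yap1 ran from 22.9 ± 3.09 down to 17.8 ± 3.65 CPM per kb. In WT explants Yap1, Stk3, Sav1, Lats1 and Nf2 ran from 21.0 ± 4.0 down to 18.7 ± 1.92 CPM per kb. The exon lengths may differ from those the authors counted over, and they set this order.

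RefSeq windows were found for 8 of the 10 genes, 12 windows in all, and a binding motif of TEAD factors was searched in them because Tead1 and its coactivators are members. The motif was GGAATG on either strand, read as CATTCC on the other, and 14.7% of all 32851 RefSeq windows hold it. It was found in 5 of the 12 windows, which belong to 4 of the 8 genes, the pair of Wwtr1 windows overlapping and sharing a single match. The share of all genes with the motif was not computed, so no enrichment is read from these counts. The matches are shown with 12 bases on each side, on the strand of the gene in GRCm38.p6, with the motif in capitals.
Sav1, chr12:69987091-69987120, minus strand: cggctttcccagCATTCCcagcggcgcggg
Lats2, chr14:57746102-57746131, minus strand: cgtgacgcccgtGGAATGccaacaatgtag
Yap1, chr9:8004720-8004749, minus strand: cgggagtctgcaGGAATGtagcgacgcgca
Wwtr1, chr3:57576029-57576058, minus strand: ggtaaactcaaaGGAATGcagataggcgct
The Sav1 match begins 106 bases before its start site, that of Yap1 141 before and that of Lats2 4 after. The Wwtr1 match begins 136 bases before the more upstream start site of its pair of windows. None of these 4 genes passed the test, their log2 fold changes running from -0.21 for Yap1 to 0.28 for Wwtr1. Neither Rassf1 window holds these letters.

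Other members of the RASSF family gave no call. Of 9 family genes, Rassf2 to Rassf10, 6 were expressed enough to test, and all 6 had log2 fold changes below 0, from -0.74 for Rassf4 to -0.19 for Rassf8, where 52.4% of all tested genes were below 0. In edgeR 0 of the 6 passed the threshold and 0 had an unadjusted p under 0.05, against 0.705% and 13.6% of all tested genes. The family values are shown for comparison with Rassf1, outside the rule for named genes. Rassf5, which also binds MST kinases, was at 2.03 ± 1.07 CPM per kb in Lmnb1-/- explants and 2.46 ± 0.612 CPM per kb in WT explants. Rassf3 was at 7.29 ± 2.14 CPM per kb in Lmnb1-/- explants and 8.79 ± 2.67 CPM per kb in WT explants. Rassf8 stood at 7.52 ± 1.05 and 8.51 ± 0.575 CPM per kb in the same order. In both genotypes Rassf1 thus lay above every other family gene on this scale. Rassf2, Rassf9 and Rassf10 were below the filter.

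The wider pathway was described from a list of 69 further Hippo and RASSF genes, of which 66 had a row and 59 were tested. In the edgeR fit, adjusted over all genes, 0 of 59 passed, where 0.705% of all tested genes did. At an unadjusted p under 0.05 there were 6 of 59, 2 higher and 4 lower, a share of 10.2% against 13.6% of all tested genes. DESeq2 called 2, Amot and Slmap, and limma voom called 0. Of the 59, 41 were below 0, against 52.4% of all tested genes, and the median log2 fold change was -0.10.

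Slmap had the smallest p of the list. Its protein joins the STRIPAK phosphatase complex to MST kinases, which that complex inactivates. It was at 81.0, 112 and 99.7 CPM in Lmnb1-/- replicates 1 to 3, against 119, 161, 203 and 194 CPM in WT replicates 1 to 4. All Lmnb1-/- values lay below all WT values, and the log2 fold change was -0.81, with an SE of 0.18 and an adjusted p of 0.0786 in edgeR. The 9 other tested STRIPAK genes, a grouping made after the values were seen, lay between -0.33 for Sike1 and 0.25 for the gene listed as Fam40b. The scaffold gene Strn3 averaged 483 ± 14 CPM in Lmnb1-/- explants and 453 ± 24.8 CPM in WT explants, and the catalytic subunit gene Ppp2ca 296 ± 34.8 and 277 ± 34.3 CPM in the same order.

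Amot, which encodes a junction protein that holds YAP in the cytoplasm, was at 244, 171 and 134 CPM in Lmnb1-/- libraries, against 128, 118, 93.4 and 99.9 CPM in WT libraries. All Lmnb1-/- values were the higher, though replicate 3 was only just above the WT maximum, and the log2 fold change was 0.75, with an SE of 0.19 and an adjusted p of 0.117 in edgeR. The related genes Amotl1 and Amotl2 had -0.10 (SE 0.13) and -0.09 (SE 0.13). Vgll4, whose product competes with YAP for TEAD factors, averaged 32.3 ± 3.84 CPM in Lmnb1-/- explants and 21.2 ± 2.41 CPM in WT explants, with a log2 fold change of 0.58, an SE of 0.17 and an adjusted p of 0.153. Vgll3, another TEAD cofactor, averaged 110 ± 11.1 CPM in Lmnb1-/- explants and 145 ± 13.5 CPM in WT explants, with a log2 fold change of -0.39, an SE of 0.12 and an adjusted p of 0.160. The large cadherin gene Fat1 averaged 1087 ± 77.2 CPM in Lmnb1-/- explants and 1535 ± 341 CPM in WT explants, with a log2 fold change of -0.50, an SE of 0.15 and an adjusted p of 0.168. For these 3 genes too the ranges lay apart. Ranges did not overlap for 10 of the 59 tested genes of the list, 16.9%, against 13.3% of all tested genes. The genes were named for their small p, so ranges that lie apart are no further evidence. The p-values are of the same edgeR fit with Benjamini-Hochberg adjustment.

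Other genes around the core did not pass the threshold either. The MOB1 genes, listed as Mobkl1a and Mobkl1b and encoding the activators of LATS, had log2 fold changes of -0.10 (SE 0.13) and 0.09 (SE 0.11). The kinases that can act on LATS in parallel to MST, of the MAP4K, TAO and related families, had 9 tested members between -0.24 and 0.15. Tead2, Tead3 and Tead4 had -0.18 (SE 0.16), -0.41 (SE 0.30) and 0.06 (SE 0.29), and per kilobase Tead1 and Tead2 were the main TEAD genes, at 22.9 ± 3.09 and 19.4 ± 3.88 CPM per kb in Lmnb1-/- explants and 33.7 ± 10.4 and 21.8 ± 2.95 CPM per kb in WT explants.

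No target gene of YAP and TEAD passed the threshold, and most were slightly lower in Lmnb1-/- explants. Of a list of 23, which shares Lats2 with the core and Amotl2, Ptpn14 and the gene listed as Jub with the wider list, 22 were tested and 0 passed in edgeR, where 0.705% of all tested genes did. At an unadjusted p under 0.05 there were 5, with F3 higher and Tgfb2, Arhgef17, Igfbp3 and Axl lower, a share of 22.7% against 13.6% of all tested genes, and DESeq2 and limma voom called 0. The median log2 fold change was -0.17, against -0.015 over all tested genes, and 19 of 22 were below 0, against 52.4% of all tested genes. The canonical targets Ctgf and Cyr61 averaged 1357 ± 303 and 488 ± 62.3 CPM in Lmnb1-/- explants, against 1438 ± 266 and 496 ± 120 CPM in WT explants, with log2 fold changes of -0.08 (SE 0.17) and -0.017 (SE 0.17). Ankrd1, a muscle stress gene and a further standard target, averaged 873 ± 147 CPM in Lmnb1-/- explants and 962 ± 178 CPM in WT explants. These 3 were named after their values were seen.

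Tgfb2, which encodes a growth factor that drives epicardial cells towards a mesenchymal state, had the smallest p of the target list. It was at 31.2, 28.0 and 23.1 CPM in Lmnb1-/- libraries, against 40.0, 36.2, 51.2 and 58.2 CPM in WT libraries, without overlap. The log2 fold change was -0.77 (SE 0.19) with an adjusted p of 0.0912 in edgeR with Benjamini-Hochberg adjustment. CPM ranges did not overlap for 5 of the 22 tested targets, 22.7%, against 13.3% of all tested genes. F3, encoding tissue factor, averaged 215 ± 29.5 CPM in Lmnb1-/- explants and 165 ± 23.8 CPM in WT explants. Arhgef17 averaged 133 ± 5.38 CPM in Lmnb1-/- explants and 191 ± 48.3 CPM in WT explants. Igfbp3 averaged 55.7 ± 6.30 and 86.2 ± 28.7 CPM, and the receptor kinase gene Axl 849 ± 124 and 1045 ± 158 CPM, in the same order.

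**Figure D4:**
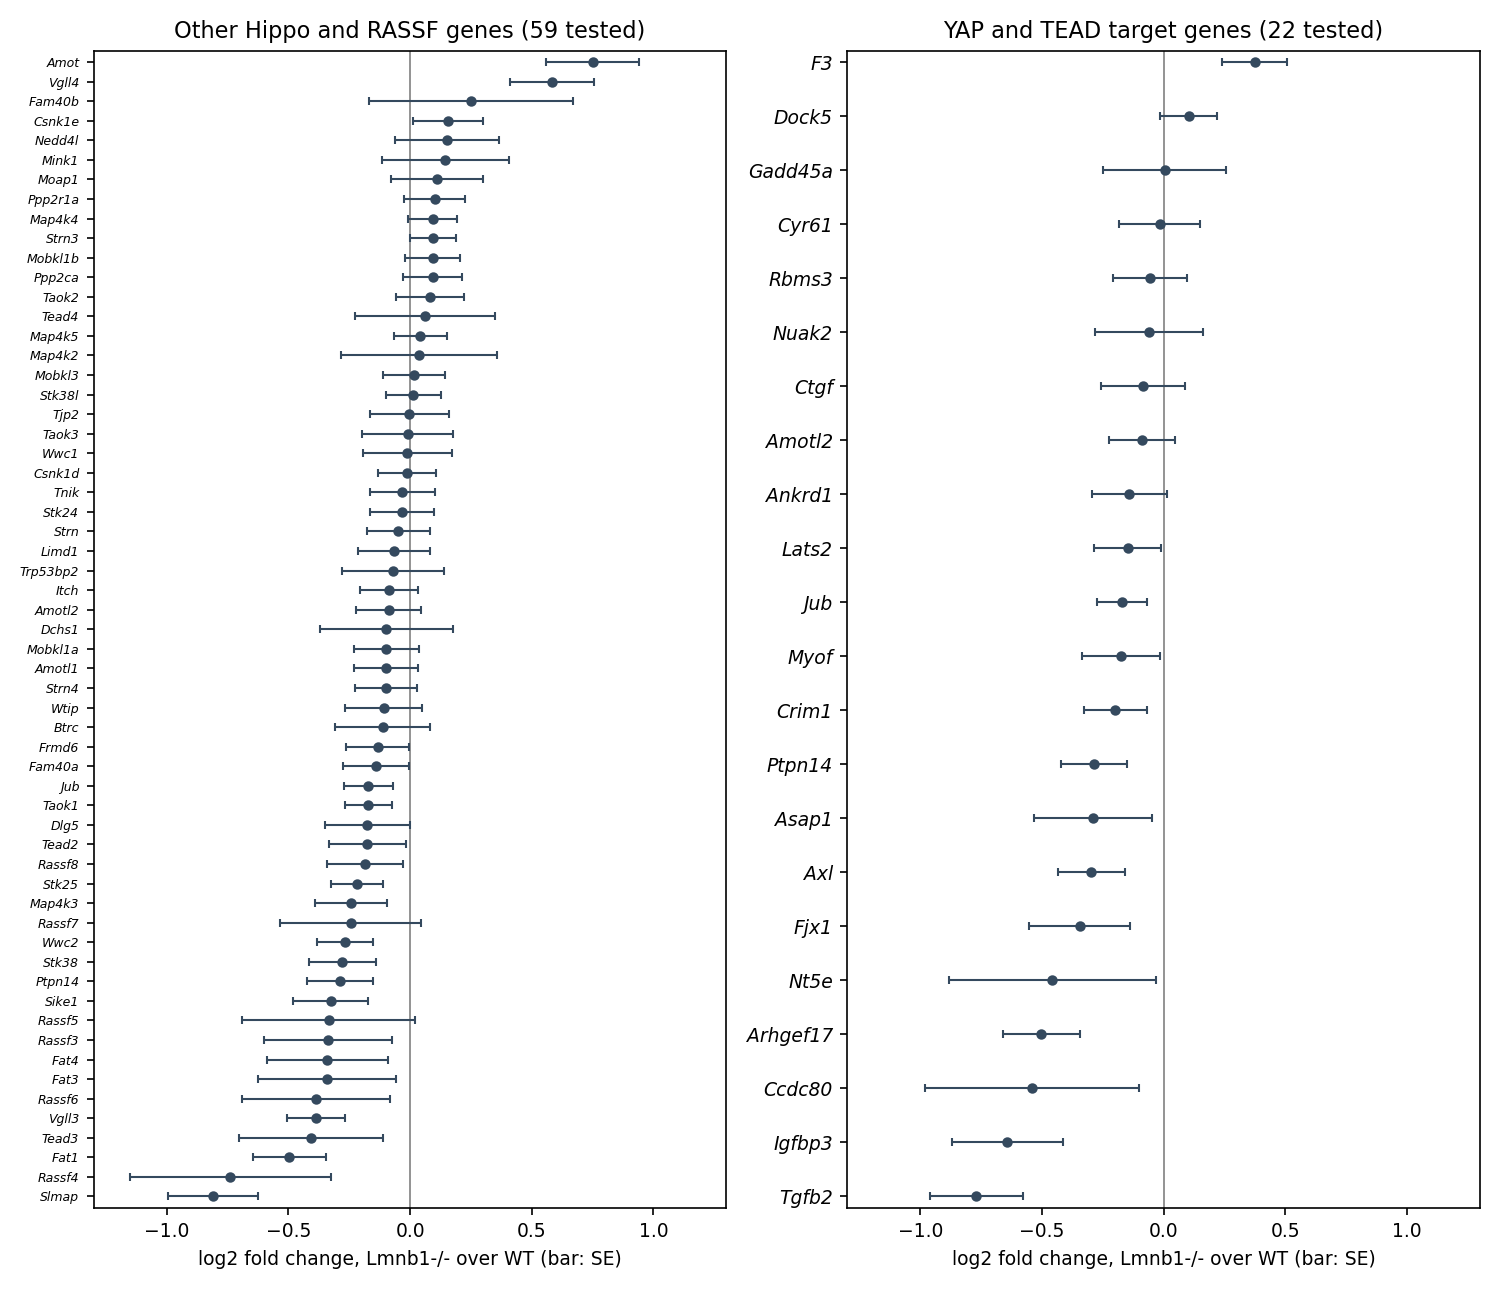
Log2 fold change (Lmnb1-/- over WT, x axis) with its SE for the 59 tested genes of the wider Hippo and RASSF list (left) and the 22 tested YAP and TEAD target genes (right), each sorted from high to low. Amot at 0.75 and Slmap at -0.81 mark the ends of the left panel, and F3 at 0.37 and Tgfb2 at -0.77 those of the right panel.

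The genes whose levels over the 7 libraries were most like those of Rassf1 were Crip2, Gng11, Ptx3, Serpinb9b and Abcb1b. Likeness was the root mean square difference of centred log2 CPM, over 7896 genes whose log2 CPM averaged 4 or more, and it was 0.34, 0.39, 0.40, 0.42 and 0.47 for the 5 genes, where the median gene had 0.91. The measure takes in the difference between genotypes for which Rassf1 was chosen, so genes with a like difference come first. Ptx3, which encodes the secreted pattern recognition protein pentraxin 3, averaged 127 ± 10.3 CPM in Lmnb1-/- explants and 44.4 ± 10.6 CPM in WT explants. Crip2, a LIM domain gene, averaged 27.5 ± 6.37 and 11 ± 1.63 CPM, and Gng11, a G protein gamma subunit gene, 25.1 ± 3.58 and 12 ± 3.06 CPM, in the same order. Serpinb9b, a serpin gene, averaged 116 ± 13.6 and 41.2 ± 13.6 CPM, and Abcb1b, encoding a multidrug transporter, 64.7 ± 4.91 and 31.0 ± 6.85 CPM. The log2 fold changes of the 5 ran from 1.03 to 1.52, below that of Rassf1.

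**Figure D5:**
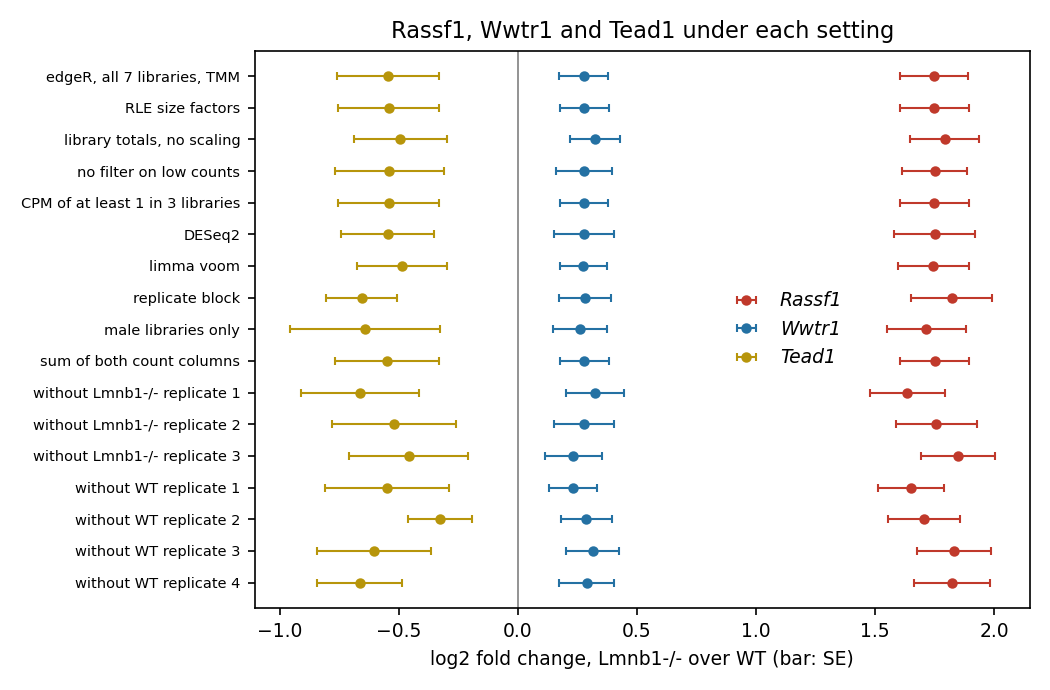
Log2 fold change (Lmnb1-/- over WT, x axis) with its SE for Rassf1 (red), Wwtr1 (blue) and Tead1 (yellow) in the edgeR fit of all libraries (top row) and under each alternative setting or with a library left out. Rassf1 runs from 1.64 to 1.85, Wwtr1 from 0.23 to 0.32 and Tead1 from -0.66 to -0.33.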

How the data were processed

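Per the labels, PicoPure RNA went into TruSeq v2 libraries, a kit without strand information. TopHat, edgeR and mm9 appear in the submitters' processing notes. The counting program, the annotation and all versions are not given in the sources used here. Every deposited table holds 2 unnamed columns of whole-number counts per gene from the authors, and the first was used. The second held 16.6 to 19.6% of all counts.

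The comparison used edgeR 4.0.16 (R 4.3.3, limma 3.58.1) with filterByExpr, TMM, robust quasi-likelihood fits and Benjamini-Hochberg adjustment over 10775 genes at 0.05, with no covariate. Fold changes are Lmnb1-/- over WT, and the SE is the log2 fold change over the root of F. DESeq2 1.42.0 and limma voom were alternatives. The procedure was also run on simulated counts, and the size of difference it can miss is not reported here. Libraries of 1 group differed beyond sampling noise (chi-square per degree of freedom 2.22 to 7.71).

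The members and lists were chosen with earlier results of these data known. Named genes were the 10 members, the 5 of smallest p in each list with any that passed, 5 neighbours on each side of Rassf1, and the 5 genes most like it. Other named genes of the lists, such as RASSF, TEAD, MOB1 and STRIPAK genes and the standard YAP targets, were chosen after their values were seen. Exon lengths are from GENCODE vM21 and windows from RefSeq, both GRCm38. They were matched by symbol, and no mm9 coordinates are given.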

Additional observations from a re-analysis of the deposited data

Results flagged for a closer look

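In 4 of 54 genes examined, the members and other genes described above, 1 WT library lay far from the other 3, by a gap that passed Dixon's 95% critical value for 4 samples. Chance gives about 1 such gene in 20, and in all 4 the library was WT replicate 2, the one with fewest counts. Vgll3 was at 165 CPM there, against 136 to 140 CPM in the other WT libraries. Arhgef17 was at 263 CPM, against 163 to 172 CPM. Vgll4 was at 17.6 CPM, against 22.2 to 22.6 CPM. Hemk1, a neighbour of Rassf1, was at 19.6 CPM, against 10.1 to 11.7 CPM, where 3 counts made 3.10 CPM. The 10 members held no such library. Groups of 3 were not examined.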

How the results depend on the processing

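Rassf1 kept a log2 fold change of 1.64 to 1.85 under all 16 alternatives, both ends being reached on leaving out a Lmnb1-/- library (replicates 1 and 3). No other member passed under any of the 16, and the lowest adjusted p among them was 0.0796, for Tead1 with the replicate block. Only Sav1 changed direction, with log2 fold changes of -0.055 to 0.079 when each library was left out. The number of genes called over the whole table, 76, was 180 with no filter on low counts, 176 with DESeq2, 46 with limma voom and 44 with the sum of both count columns, and 3 to 279 when each library was left out. With library totals in place of TMM 47 were higher and 26 lower, against 39 and 37. Slmap passed with no filter, with male libraries only and without WT replicate 1, so that the wider Hippo list had 1 call in each, and with Amot it made 2 calls with DESeq2. The target list had 1 call, Tgfb2, with no filter and without WT replicate 1. Leaving out each library gave 0 to 1 calls in either list. No neighbour of Rassf1 passed under any alternative. The cause of these differences was not tested.

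With the replicate number of the titles as a block, 77 genes passed, 2 of them in the wider Hippo list (Slmap and Amot), and Rassf1 was at 1.82. WT replicate 4 had no Lmnb1-/- library of the same number, so it added nothing to the genotype differences of the blocked fit. Deviations of same-numbered libraries from their group means correlated at 0.26, -0.16 and -0.09 for numbers 1 to 3. Differently numbered libraries were not compared in this way, so these values cannot tell whether the numbers pair the libraries. Depth limits the low genes most, such as Nat6 and Rassf5.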
